A study of Sus scrofa with 12 samples.

Results

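The open chromatin of 9 genes that encode fiber type and muscle lineage transcription factors, SIX4, EYA1, EYA4, SOX6, TBX15, PROX1, NFIX, TEAD1 and TEAD4, was compared between Luchuan and Duroc pigs. ATAC-seq, in which a transposase cuts open DNA so that its ends can be sequenced, was performed on the longissimus dorsi muscle, the long muscle of the back, of 3 Luchuan and 3 Duroc boars, all male, 180 days old and kept under the same conditions. Luchuan is an indigenous Chinese fat breed and Duroc a lean one, and the labels name no treatment or genotype. The RNA-seq libraries of the series were not analysed here. The table of open regions has 1 read count per breed, which was read as pooled over the boars of that breed, so breed was compared without any spread between animals and no test of the difference was possible.

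The members were chosen by position. Every row of the table whose midpoint lay in a gene of the list, or within 10 kb of it, in Sscrofa11.1 was taken. This gave 741 of 217213 rows. Overlapping rows of peaks found in both breeds were merged, which left 475 regions of 140081, and each of the 9 genes had at least 9 of them. These regions held 72814 Duroc and 46858 Luchuan reads, with medians of 76 and 50 reads per region, and no region was without reads in either breed. The region nearest to the limit of 10 kb on the inside lay 9.68 kb from EYA4 (54 Duroc and 53 Luchuan reads, log2 ratio 0.53), and the nearest on the outside lay 11.4 kb from EYA4 (38 and 30 reads, 0.22).

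SIX4 is a homeobox factor that acts with EYA coactivators early in myogenesis, and in adult muscle EYA1 is known for its part in the fast glycolytic program. SOX6 represses slow fiber genes, TBX15 is found in glycolytic fibers, and PROX1 is known for its role in slow fibers. NFIX switches the embryonic to the fetal muscle program. TEAD factors bind the MCAT element of many muscle promoters and are the DNA partners of the Hippo pathway coactivators YAP1 and TAZ (gene WWTR1).

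The 9 genes lay on both sides of 0. Summed over its regions, accessibility was lower in Luchuan for NFIX, SOX6, TEAD1, TEAD4 and SIX4, and higher in Luchuan for EYA4, EYA1, PROX1 and TBX15, although with scaling by clean reads EYA4, EYA1 and PROX1 also came out below 0. All differences were small. With scaling by clean reads they lay between -0.48 (NFIX) and 0.01 (TBX15) on the log2 scale. With the scaling described below they lay between -0.28 and 0.20, which is at most 1.22-fold. None of the 9 genes reached 2-fold, a size found for 1.36% of the 15822 genes with at least 100 reads. Log2 ratios are of Luchuan to Duroc after the Luchuan reads were multiplied by 1.48, the factor that puts the median region common to both breeds at 0, and with 1 added to each count. Intervals are 95% Clopper-Pearson intervals and cover counting error only, since each breed has 1 pooled count and the factor was taken as fixed. Without molecular identifiers a read need not stand for its own molecule, so even counting error may not be covered in full.

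NFIX had the lowest ratio. Its 44 regions held 9057 Duroc and 5038 Luchuan reads, a log2 ratio of -0.28 (95% interval, -0.33 to -0.24), at percentile 11.7 of the 16986 protein-coding genes with a region. SOX6 followed with 14077 Duroc and 8353 Luchuan reads over 148 regions and a ratio of -0.19 (-0.23 to -0.15), at percentile 19.5. TEAD1 had the most reads of the 9 genes, 17482 in Duroc and 10387 in Luchuan over 89 regions, and a ratio of -0.19 (-0.22 to -0.15). For its paralogue TEAD4, 12 regions with 4089 and 2464 reads gave -0.17 (-0.24 to -0.10). SIX4, with 3601 and 2280 reads over 9 regions, was the closest of these to 0 at -0.10 (-0.17 to -0.02). With the regions of its gene body alone, SIX4 was at -0.05.

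On the other side, TBX15 was highest, with 8639 Duroc and 6729 Luchuan reads over 33 regions and a log2 ratio of 0.20 (0.15 to 0.25), at percentile 80.8 of all genes. PROX1 had the fewest reads, 1361 in Duroc and 1018 in Luchuan over 14 regions, and the widest interval, 0.14 (0.02 to 0.26). The EYA genes had nearly the same ratio from very different numbers of regions. EYA1 had 2777 and 2035 reads over 22 regions and a ratio of 0.11 (0.03 to 0.20), and EYA4 had 11731 and 8554 reads over 104 regions and a ratio of 0.11 (0.07 to 0.15).

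Ordered by ratio, only 2 neighbouring pairs were apart beyond counting error, NFIX below SOX6 and SIX4 below EYA4. The intervals of SOX6, TEAD1, TEAD4 and SIX4 overlapped from each to the next, and so did those of EYA4, EYA1, PROX1 and TBX15. Counting intervals that leave out 0 were frequent in these data. For all 9 genes the interval left out 0, with 5 genes lower and 4 higher in Luchuan, but it did so for 25.5% of all genes as higher in Duroc and 22.5% as higher in Luchuan. The interquartile range of all genes was -0.15 to 0.15, so EYA1, EYA4, PROX1 and SIX4 were inside it and the other 5 genes outside. This split depended on the settings. Over all settings NFIX (percentiles 9.9 to 22.6) and TBX15 (76.0 to 83.5) stayed outside, and EYA4 (67.6 to 74.6) and SIX4 (32.6 to 46.9) inside. SOX6 (up to 28.1), TEAD1 (29.6) and TEAD4 (26.5) came inside in some settings, and EYA1 (up to 77.4) and PROX1 (86.4) went outside.

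The level of the ratio depended on the scaling. With the clean reads of the libraries as the scale, which multiplies Luchuan by 1.29, the median of all genes moved from -0.01 to -0.20 and the 9 genes moved with it. EYA1 was then at -0.082, EYA4 at -0.090, PROX1 at -0.053 and TBX15 at 0.01, while NFIX was at -0.48. Relative to the median of all genes, TBX15 was at 0.21, PROX1 at 0.15, EYA1 at 0.12, EYA4 at 0.11, SIX4 at -0.09, TEAD4 at -0.16, TEAD1 and SOX6 at -0.18 and NFIX at -0.28, and each of these kept its sign under the 10 alternatives computed for it.

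**Figure D1:**
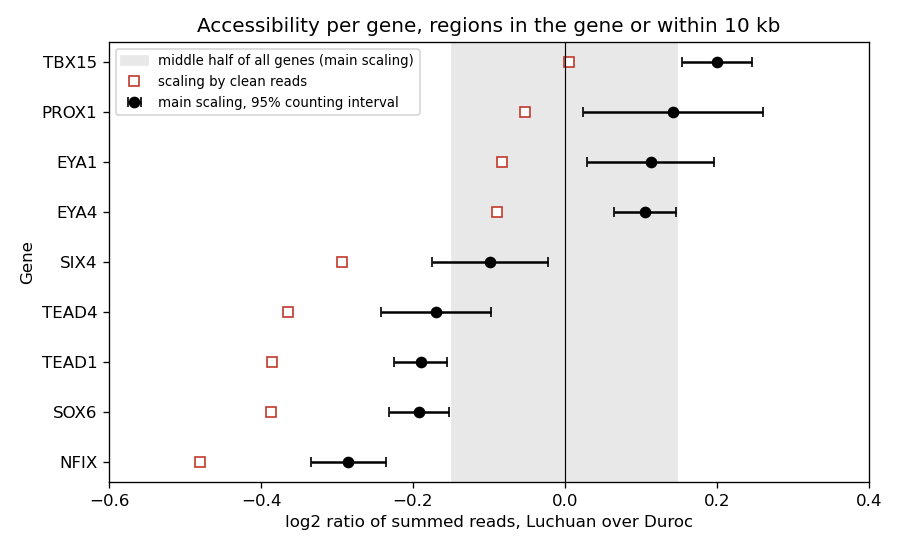
Log2 ratio of summed reads, Luchuan over Duroc, for each of the 9 genes (black dots, with 95% counting intervals) beside the interquartile range of all genes (grey). The ratios run from -0.28 for NFIX to 0.20 for TBX15, and with scaling by clean reads (red squares) all genes shift to lower values, so that EYA4, EYA1 and PROX1 fall below 0.

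Per length of open region, TEAD4 and SIX4 were the most accessible of the 9 genes in Duroc. TEAD4 had 730 and SIX4 670 Duroc reads per kb of region, followed by NFIX with 598, TBX15 with 561 and TEAD1 with 554. EYA4 had 385, EYA1 373, SOX6 347 and PROX1 323 Duroc reads per kb. In Luchuan, after multiplication by 1.48, TEAD4 had 649, TBX15 645 and SIX4 626 reads per kb, and SOX6 had the fewest, 304. NFIX had 491. TBX15 thus stood above SIX4 and NFIX in Luchuan and below both in Duroc. A boar-to-boar spread was not given, so these orders describe 2 pooled libraries. In bulk muscle, fewer cells of a type and lower accessibility per cell cannot be told apart.

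Single regions differed more than whole genes. A difference of 2-fold or more was found for 23 of the 475 regions as higher in Duroc, which is 4.84%, and for 5.18% of the 107364 regions of all protein-coding genes in that direction. In the other direction 5 regions, or 1.05%, were higher in Luchuan, against 5.5% of the regions of all genes. With scaling by clean reads the counts were 40 in Duroc and 3 in Luchuan, with 8.13% and 3.69% of the regions of all genes. Regions with few reads pass such a limit more easily. Among the 413 regions with at least 50 reads, 16 were higher in Duroc and 1 in Luchuan, against 4.71% and 2.02% of the regions of all genes with as many reads. The share of the 9 genes in Duroc was thus close to the background, and the share in Luchuan was below it.

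Peak class went with these differences. Of the 23 regions higher in Duroc, 22 were peaks called in Duroc alone and 1 was common. Of the 5 higher in Luchuan, 4 were called in Luchuan alone and 1 in Duroc alone. A peak called in 1 breed was picked for its reads in that breed, so its ratio is not independent of its class, and 14.3% of all Duroc-only peaks of genes were 2-fold higher in Duroc, against 22 of the 173 Duroc-only peaks here. The 9 genes had 49.3% common regions, 36.4% Duroc-only and 14.3% Luchuan-only peaks, and all genes had 50.7%, 32.0% and 17.3%. Counting intervals left out 0 for 79 of the 475 regions as higher in Duroc and 31 as higher in Luchuan, with 15.4% and 12.2% of the regions of all genes. Among the 234 common regions, to which both breeds contributed a peak, 33 were higher in Duroc and 17 in Luchuan by this measure, with 15.3% and 12.5% as background. Counts of ratios below or above 0 are given per gene below. Over the regions of all genes, 41.0% of those with under 50 reads were below 0. With 50 to under 200 reads the share was 58.0%, and with 200 reads or more 54.9%. The median ratio was -0.03 over these regions and -0.01 over the common ones.

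**Figure D2:**
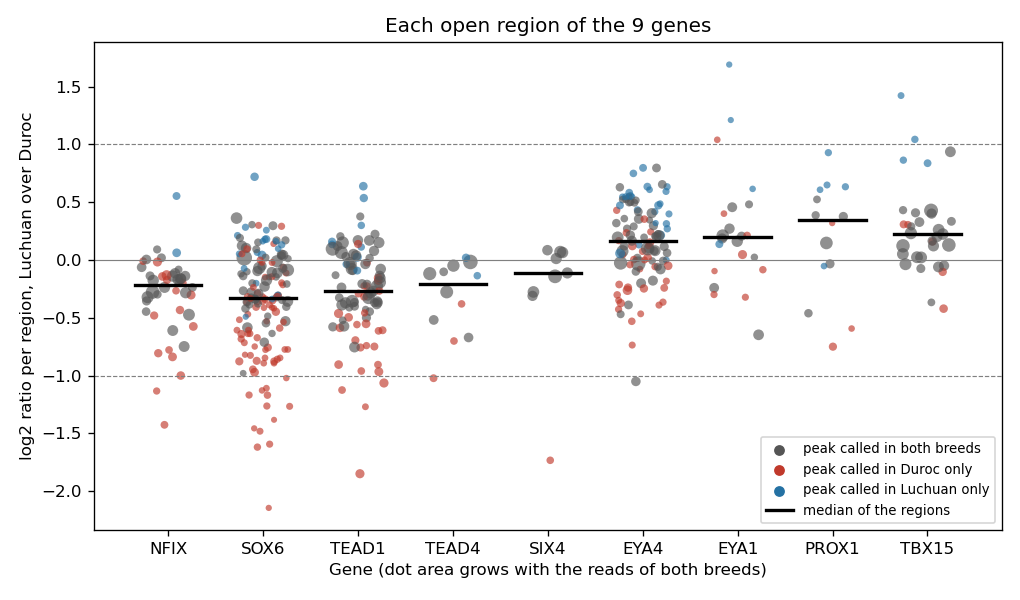
Log2 ratio of each region (dots, Luchuan over Duroc, scaled by common regions) by gene, coloured by the breed in which the peak was called, with the median of the regions as a bar. The medians run from -0.33 for SOX6 to 0.35 for PROX1, and dashed lines mark 2-fold. Of the 23 regions at or below -1, 13 belong to SOX6, which holds 148 of the 475 regions. Scaling by clean reads would lower every dot by about 0.20.

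SOX6 (chromosome 2, 42447391 to 43068824) encodes an SRY-related factor that silences slow fiber genes. Among its 148 regions, 75 were Duroc-only peaks, which is 50.7%, 55 were common and 18 Luchuan-only, and 114 had a ratio below 0. It had 13 of the 23 regions that were 2-fold higher in Duroc and none higher in Luchuan. The 13 were 8.78% of its regions, against 5.18% of the regions of all genes. Among its Duroc-only peaks they were 17.3%, against 14.3% of the Duroc-only peaks of all genes. These 13 regions were Duroc-only peaks inside the gene. The largest change among those with at least 50 reads was at 42675603 to 42675776, with 61 Duroc and 13 Luchuan reads and a log2 ratio of -1.62 (-2.66 to -0.79). The region from 42535974 to 42536334 had 51 and 11 reads and a ratio of -1.59 (-2.74 to -0.69). At 42785016 to 42785206 there were 43 and 10 reads, a ratio of -1.48 (-2.70 to -0.53). All of these are weak peaks.

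The strongest SOX6 region did not share this direction. It lies at 42455731 to 42457204, inside the gene and 9.08 kb from its lower end, and counted 1521 reads in Duroc and 1044 in Luchuan, a ratio of 0.02 (-0.10 to 0.13), or -0.18 with scaling by clean reads. The ratio differed along the gene. With the gene divided into 5 equal parts, a division chosen after values had been seen, the part at the lower end had a summed ratio of -0.04 (-0.11 to 0.02) and the part at the upper end -0.01 (-0.10 to 0.07). The parts between them had -0.42, -0.46 and -0.55. Together the 3 inner parts held 5776 Duroc and 2844 Luchuan reads (-0.46, interval -0.53 to -0.40) and the 2 outer parts 7303 and 4839 reads (-0.03, -0.09 to 0.02). This grouping followed the ratios of the parts, so the gap between the sums adds nothing to them. With only the common regions of each part summed, the inner parts were at -0.38, -0.32 and -0.38 and the outer parts at -0.02 and 0.01. Among the common regions alone, 24 of 26 in the inner parts and 13 of 26 in the outer parts had a ratio below 0. In the inner parts 53 of 88 regions were Duroc-only peaks, and in the outer parts 22 of 56. These counts were split by the same grouping, so they are no further support for it. The regions within 500 kb beyond the 10 kb window of SOX6 had a median ratio of 0.04 (69 regions), against -0.33 inside, and a summed ratio of -0.02 against -0.19.

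TEAD1 lies on the same chromosome from 46396490 to 46670619, 3.33 Mb above SOX6. It encodes the TEA domain factor that binds MCAT elements, and 66 of its 89 regions, 36 of the 51 common ones included, had a ratio below 0. Of its regions with 50 to under 200 reads 75.6% were below 0, against 58.0% over all genes. With 200 reads or more the shares were 72.1% and 54.9%. The counting interval left out 0 for 30 regions as higher in Duroc and 2 as higher in Luchuan. These were 33.7% and 2.25% of its regions, against 15.4% and 12.2% of the regions of all genes. More reads narrow the interval, and the median region of TEAD1 had 126 Duroc reads, against 76 over the 9 genes. A Duroc-only peak from 46420099 to 46420412, 23.8 kb from the lower end, counted 194 reads in Duroc and 36 in Luchuan, a log2 ratio of -1.85 (-2.42 to -1.35). Of the regions of the 9 genes with at least 50 reads it had the lowest ratio. The region from 46606000 to 46606244 had 177 and 57 reads (-1.06, interval -1.53 to -0.64; -0.999 with scaling that depends on the mean signal) and that from 46549666 to 46549854 had 72 and 22 (-1.13, -1.91 to -0.44). At the upper end of the gene the strongest region (46670019 to 46671058) held 867 reads in Duroc and 628 in Luchuan, a ratio of 0.10 (-0.05 to 0.25), which turned to -0.10 with scaling by clean reads. It overlaps the annotated gene LOC102164222. The 6 regions beyond the lower end of TEAD1 lie in another annotated gene, LOC110259298, so their reads need not belong to TEAD1. With the regions of its gene body alone, TEAD1 was at -0.18. The part of TEAD1 next to its upper end had a summed ratio of 0.01 (-0.06 to 0.09), and the part next to its lower end -0.36 (-0.46 to -0.27). Beyond the window, 91 regions within 500 kb had a median of 0.01, against -0.27 in TEAD1, but summed over reads they were at -0.14, against -0.19 in the gene.

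TEAD4 (chromosome 5, 67130392 to 67167579) encodes a paralogue used in myoblast differentiation. Among its 12 regions, 11 had a ratio below 0, among them all 7 common ones. The strongest (67163321 to 67164395) counted 1165 reads in Duroc and 780 in Luchuan and was at -0.02 (-0.15 to 0.11), with 29.7% of the reads of the gene. A single region differed 2-fold, a Duroc-only peak from 67133917 to 67134126 with 79 and 26 reads (-1.02, interval -1.74 to -0.39), and it came out under 2-fold with scaling by the total reads in regions (-0.99) and with a pseudocount of 5 (-0.95).

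NFIX (chromosome 2, 65954808 to 66056591) encodes a nuclear factor I protein. Its lower accessibility in Luchuan was spread over the gene, with 39 of 44 regions and 22 of 25 common regions below 0, and the 5 equal parts lay between -0.70 and -0.17. The strongest region (66046403 to 66047357) counted 918 reads in Duroc and 513 in Luchuan, a ratio of -0.28 (-0.44 to -0.12), the ratio of the gene as a whole. The 3 regions with a difference of 2-fold or more were Duroc-only peaks near the middle of the gene. They lay from 66001512 to 66001661 with 81 and 20 reads (-1.43, interval -2.24 to -0.74), from 66009043 to 66009194 with 53 and 16 reads (-1.13, -2.07 to -0.34) and from 66002140 to 66002412 with 122 and 41 reads. The last of these was at the limit itself, -1 (-1.56 to -0.49), and came out under 2-fold with scaling by the total reads in regions (-0.97), with scaling that depends on the mean signal (-0.98) and with a pseudocount of 5 (-0.96). Close to the lower end, a common region (65955430 to 65956072) counted 385 reads in Duroc and 155 in Luchuan, a ratio of -0.75 (-1.03 to -0.48). That region also lies in LYL1, a blood lineage transcription factor gene that overlaps this end of NFIX, so its reads cannot be given to 1 of these genes. The surroundings of NFIX were low too, with a median of -0.19 over 64 regions within 500 kb against -0.22 in NFIX, and a summed ratio of -0.18 against -0.28.

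**Figure D3:**
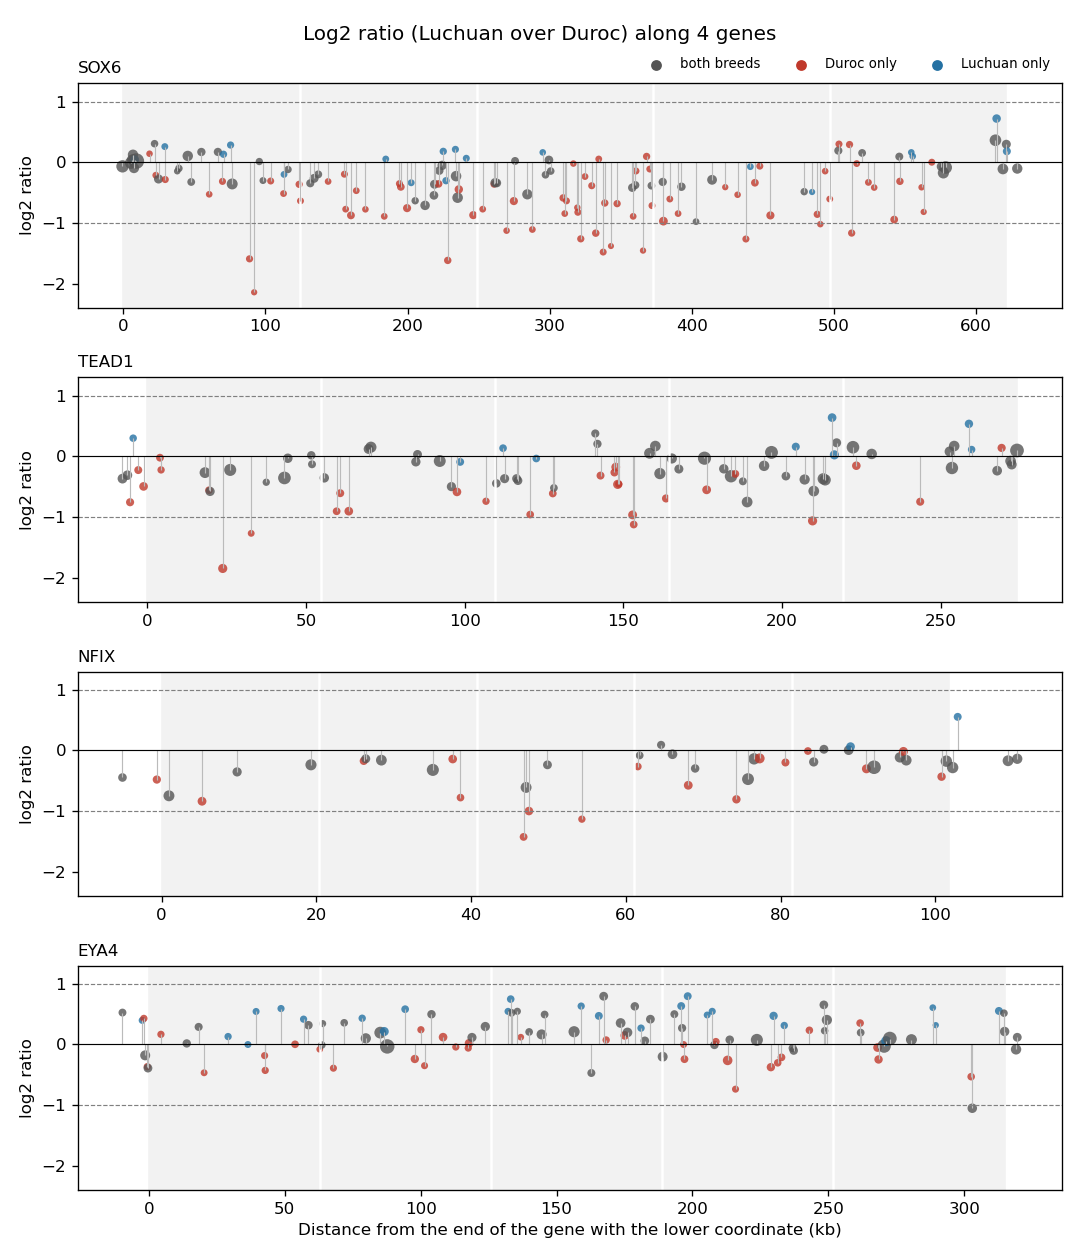
Log2 ratio of each region (Luchuan over Duroc, scaled by common regions) against its distance in kb from the lower-coordinate gene end, for SOX6, TEAD1, NFIX and EYA4, coloured by the breed in which the peak was called and larger with more reads. The gene is shaded and divided into 5 equal parts, and in SOX6 the 3 inner parts have summed ratios of -0.42, -0.46 and -0.55 while both ends stand near 0. With scaling by clean reads all dots are lower by about 0.20.

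SIX4 (chromosome 1, 189670390 to 189682378) encodes a homeobox factor of early muscle precursors. Among its 9 regions, 8 were common, the highest share of the 9 genes, and 4 of these 8 were below 0. The strongest region, from 189681153 to 189682204, held 933 Duroc and 573 Luchuan reads (-0.14, interval -0.29 to 0.01). A single Duroc-only peak 6.17 kb beyond the upper end, from 189688422 to 189688675, differed past 2-fold, with 71 and 14 reads and a ratio of -1.73 (-2.72 to -0.94). A common region 8.07 kb beyond that end, from 189690009 to 189690882, had 465 and 260 reads (-0.28, interval -0.50 to -0.06). It lies in the gene MNAT1, so its reads need not belong to SIX4.

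EYA4 and EYA1 encode phosphatases that act as coactivators of homeobox factors such as SIX4. In EYA4, on chromosome 1 from 30260784 to 30575593, 71 of 104 regions and 36 of 48 common regions had a ratio above 0, although its strongest region, from 30347951 to 30349057 with 1127 Duroc and 747 Luchuan reads, was at -0.03 (-0.17 to 0.10). The ratio was highest in the middle part of the gene, 0.31, and at the upper part it was 0.00. A single region differed 2-fold, in the other direction, a common region from 30563517 to 30563904, 11.9 kb from the upper end, with 212 Duroc and 69 Luchuan reads and a ratio of -1.05 (-1.47 to -0.66). With scaling by common regions it was the only common region among all 9 genes that differed 2-fold, and it was at -0.98 with scaling that depends on the mean signal. The 75 regions in the 500 kb around EYA4 had a median of -0.20, against 0.17 in the gene, and a summed ratio of -0.13 against 0.11.

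In EYA1, on chromosome 4 from 63970939 to 64328107, 16 of 22 regions were above 0 with scaling by common regions. The strongest (64153891 to 64154777), in the middle of the gene, counted 552 reads in Duroc and 433 in Luchuan, a ratio of 0.21 (0.03 to 0.40), or 0.02 with scaling by clean reads. At the lower end of the gene, a common region from 63970947 to 63971386 had 174 and 162 reads and a ratio of 0.46 (0.14 to 0.78). The 3 regions of EYA1 that were 2-fold higher in Luchuan had under 50 reads each, and none was common.

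TBX15 (chromosome 4, 101918891 to 102032280) encodes a T-box factor of glycolytic fibers. Among its 33 regions, 26 had a ratio above 0 and 24 were common, of which 19 were above 0. The counting interval left out 0 for 12 regions as higher in Luchuan and for none as higher in Duroc. The 12 were 36.4% of its regions, against 12.2% of the regions of all genes, where 15.4% were higher in Duroc. More reads narrow the interval, and the median region of TBX15 had 175 Duroc reads, against 76 over the 9 genes. Its strongest region (101943421 to 101944857) counted 836 reads in Duroc and 762 in Luchuan, a ratio of 0.43 (0.28 to 0.57), which stayed above 0, at 0.23, with scaling by clean reads. Near the upper end a Luchuan-only peak, from 102031614 to 102031763, had 31 and 44 reads and a ratio of 1.04 (0.37 to 1.78). With scaling by common regions it was the only region of the 9 genes with at least 50 reads that was 2-fold higher in Luchuan, and it came out under 2-fold with scaling by clean reads (0.85), with scaling that depends on the mean signal (0.90) and with a pseudocount of 5 (0.96). Around TBX15, 66 regions within 500 kb had a median of 0.28, against 0.22 in the gene, but a summed ratio of 0.03 against 0.20.

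PROX1 (chromosome 9, 129527704 to 129583693) encodes a homeobox factor linked to slow fibers. A single region, from 129580507 to 129581390, held 44.2% of its reads, with 601 in Duroc and 451 in Luchuan, and its ratio was 0.15 (-0.03 to 0.33), or -0.05 with scaling by clean reads. This region also lies in the overlapping gene LOC106507881, as do 3 of the other 13 regions. No region of PROX1 differed 2-fold, and the counting interval left out 0 for 1 region in each direction. That is 7.14% of its regions each way, against 15.4% of the regions of all genes as higher in Duroc and 12.2% in Luchuan.

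Long members were dense in open regions. Over the gene and 10 kb on both sides, NFIX had 36.1 regions per 100 kb, EYA4 31.1, TEAD1 30.3, TBX15 24.7 and SOX6 23.1, while EYA1 had 5.83. The median of the 2880 protein-coding genes of 100 kb or more was 6.55, with an interquartile range of 3.11 to 12.05, and the 5 dense genes stood at percentiles 95.9 to 99.7 of them. By number of regions SOX6 ranked 6 and EYA4 15 among all genes. Paralogues differed. EYA1 and EYA4 are of like length, 357 and 315 kb, but had 22 and 104 regions. SOX5, a paralogue of SOX6 with 1007 kb, had 16 regions or 1.56 per 100 kb, against 148 in SOX6. The nuclear factor I genes NFIA and NFIB had 23.3 and 19.2 regions per 100 kb.

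**Figure D4:**
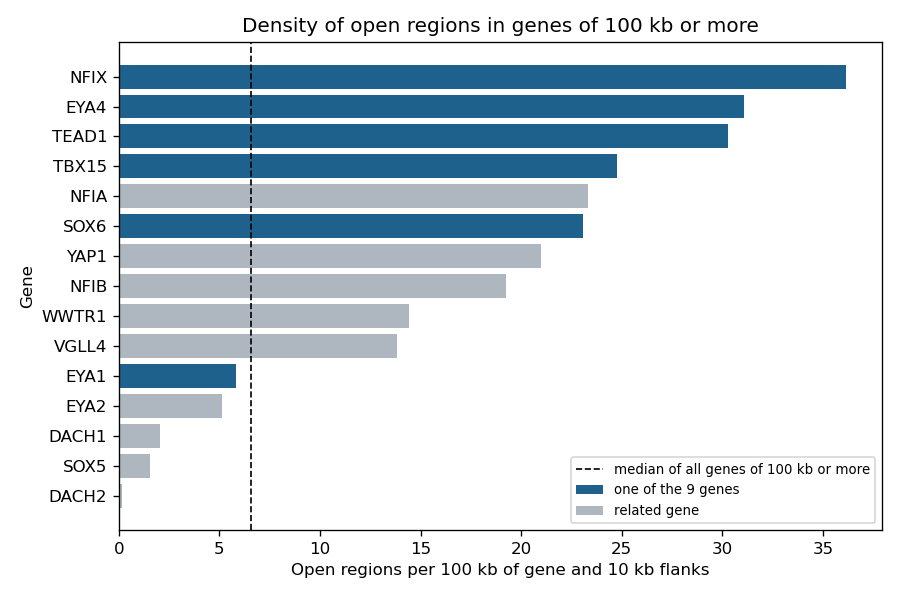
Open regions per 100 kb in the 6 members of 100 kb or more (blue) and in related genes of that length (grey). NFIX, EYA4, TEAD1, TBX15 and SOX6 lie between 23.1 and 36.1, above the median of 6.55 for all such genes (dashed line), and EYA1 lies at 5.83.

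The paralogues and partners of the 9 genes, 24 in all, were spread on both sides of 0 as well. Of them 14 had a ratio below 0 and 10 above, with a median of -0.02 against -0.01 for all genes. The counting interval left out 0 for 8 as higher in Duroc and 6 as higher in Luchuan, and none of those with at least 100 reads reached 2-fold. The lowest was TBX1, a T-box factor of head muscle, with 460 Duroc and 174 Luchuan reads (-0.84, interval -1.10 to -0.59). None of the 4 regions of TBX1 was common to both breeds, so its ratio rests on peaks picked for their reads in 1 breed. EYA2 with 1432 and 824 reads (-0.24, -0.36 to -0.11) and EYA3 with 1098 and 634 reads (-0.23, -0.37 to -0.09) were next, so these paralogues were below 0 where EYA1 and EYA4 were above it with scaling by common regions. The highest with at least 100 reads were SOX13 with 296 and 309 reads (0.62, interval 0.39 to 0.86), TBX18 with 1007 and 813 (0.25, 0.12 to 0.39) and DACH1, a corepressor in the EYA network, with 372 and 300 (0.25, 0.03 to 0.47). Among the partners of TEAD factors, YAP1 stood at 0.10 (0.03 to 0.18) and WWTR1 at 0.09 (0.01 to 0.16). These values are scaled by common regions, and scaling by clean reads lowers each by about 0.20.

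The labelled tissue was checked against marker genes. All 9 genes of the muscle fiber list, ACTA1, CKM, DES, MYH1, MYH2, MYH7, TNNT3, RYR1 and MYLPF, had open regions, with 2384 to 14521 Duroc reads per gene, and together 796 Duroc reads per kb of region. Genes of liver (ALB, APOB, AHSG) had 22 to 237 Duroc reads each and 167 reads per kb. The neuronal genes (NEUROD1, SYN1, GAD1), also from outside the tissue, were not as low, with 42 to 1245 Duroc reads each and 323 per kb. That was above the endothelial (284) and fibroblast (286) lists and below the adipocyte (445), satellite cell (490) and immune (510) lists. All genes had 469 Duroc reads per kb. Each fiber gene had a ratio below 0, from -0.47 for CKM to -0.04 for DES with a median of -0.34, and the counting interval left out 0 for 8 of them. This is the direction of NFIX, SOX6, TEAD1, TEAD4 and SIX4. Satellite cell genes were at -0.57 (CALCR), -0.21 (PAX7) and 0.08 (MYF5). The 4 adipocyte genes lay between -0.94 and 0.33 with 101 to 1163 Luchuan reads each, the 3 endothelial genes between -0.71 and -0.01, the 4 immune genes between -1.07 and 1.19, the 3 fibroblast genes between -0.11 and 0.38, and the 3 neuronal genes between -0.27 and 0.32. No marker list was without reads in either breed. The part of cell makeup in the ratios of the 9 genes was not tested.

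**Figure D5:**
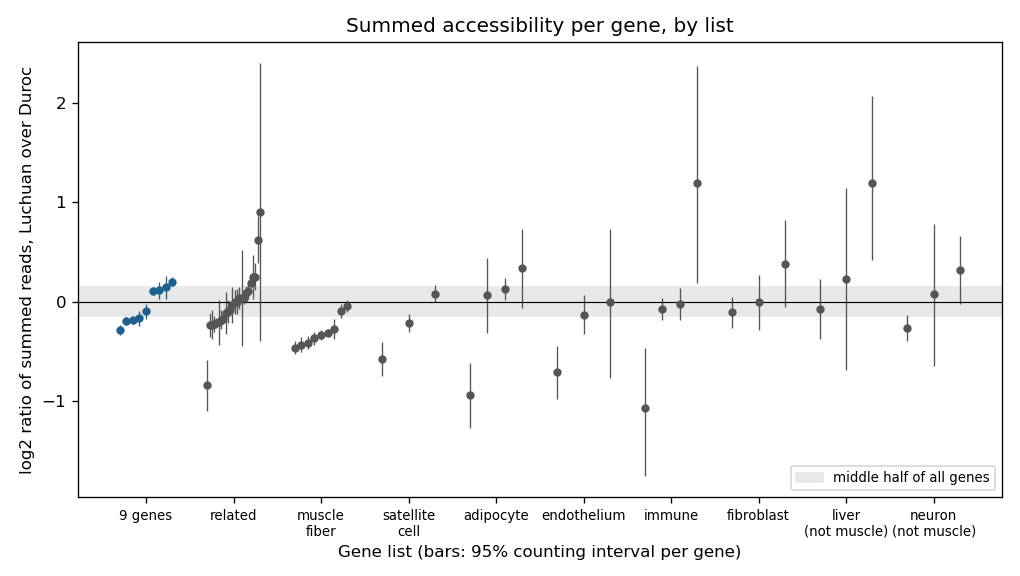
Log2 ratio of summed reads per gene (Luchuan over Duroc, scaled by common regions, 95% counting intervals) for the 9 genes, the 24 related genes and the marker lists, with the interquartile range of all genes as a grey band. All 9 fiber genes lie below 0, with a median of -0.34, and the 9 transcription factor genes lie on both sides. With scaling by clean reads each dot is about 0.20 lower.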

How the data were processed

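ATAC-seq of longissimus dorsi muscle was available for 3 Duroc and 3 Luchuan boars. Per the labels, the authors trimmed reads (Trimmomatic, version 0.36), used Bowtie2 for alignment to Sscrofa11.1 and called peaks by MACS2. The handling of duplicate reads, the transposase shift and the way boars were combined are not given in the sources used here. The deposited values are unscaled counts of reads in each peak interval, in 1 column per breed. The authors' columns of log2 fold change, mean signal and P hold their own comparison and were not used. An interval nested in another never held more reads (0 of 45059), so reads were taken as counted within the interval.

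From the counts, overlapping or adjoining common rows were merged and the longest row stood for the region. Starts were read as counted from 0 and are given from 1. Luchuan counts were multiplied by the factor that sets the median log2 ratio of common regions to 0, with a pseudocount of 1. Regions went to each of 19550 protein-coding genes (RefSeq, Sscrofa11.1) whose body and 10 kb on both sides held their midpoint. All 9 symbols matched. Strand is not in that annotation, so promoters were not separated, and the planned motif search and regions at the start of genes were not run. With 1 pooled count per breed, the planned model for counts per boar could not be fitted, and no p-value is given. Totals over all regions were 20759894 Duroc and 13746020 Luchuan reads.

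Named for each member were the region with the most reads and up to 3 regions per direction past 2-fold with at least 50 reads, and of the related genes the 3 highest and 3 lowest with at least 100 reads. Regions at gene ends, the division of genes into 5 parts, the 500 kb surroundings and the other named related genes were chosen after values had been seen. The same holds for the common region of EYA1 that was higher in Duroc. So was the grouping of the SOX6 parts into inner and outer ones. The values of 1 related gene are not reported here. The members and lists were chosen with earlier results of these data known. The scaling factor, the 2-fold calls and the counting intervals were checked on simulated counts. These held counting error alone, and the planted changes were larger than 2-fold and lay in regions with many reads. The check thus does not cover weak regions, changes near 2-fold or any spread between boars. Values were computed in Python 3.11.15 with pandas 2.3.3 and NumPy 2.4.6, intervals with SciPy 1.17.1 and plots with Matplotlib 3.10.9.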

Additional observations from a re-analysis of the deposited data

How the results depend on the processing

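No paired analysis was possible because the table gives 1 count per breed and no column per boar, and for the same reason no replicate could be left out. The number of member regions 2-fold higher in Luchuan, 5 with the settings used above, was 3 with scaling by clean reads, 3 with scaling that depends on the mean signal, 2 with a pseudocount of 5, 1 with at least 50 reads, 0 with at least 100 reads, 24 at a fold of 1.5 and 0 at a fold of 4. The number higher in Duroc, 23 with the settings used above, was 40 with scaling by clean reads, 6 with at least 100 reads, 75 at a fold of 1.5 and 1 at a fold of 4. Scaling by clean reads moved the median log2 ratio of the 9 genes from -0.10 to -0.29 and reversed EYA1 to -0.082, EYA4 to -0.090 and PROX1 to -0.053, which follows from the smaller factor for Luchuan. The other 6 genes kept their sign under the 10 alternatives computed for each. With the choice of regions, PROX1 moved to 0.35 as the median of its regions, and SOX6 to -0.33 by that measure and to -0.11 with common regions only. The share of member regions common to both breeds was 67.5% with every row as listed, 56.2% with at least 50 reads and 73.4% with at least 100 reads. Depth limited the weak regions, since 62 of the 475 had under 50 reads in both breeds together.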

Other observations

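Strength went with the ratio differently in SOX6 than over all genes. Regions of SOX6 with under 50 reads in both breeds together had a ratio below 0 in 37 of 44 cases (median -0.48), those with 50 to under 200 reads in 58 of 78 (median -0.33), and those with 200 reads or more in 19 of 26 (median -0.10). Over the regions of all protein-coding genes the medians of these classes were 0.18, -0.10 and -0.03. In EYA4 the medians were 0.22, 0.22 and 0.10, and in TEAD1 the 43 regions with 200 reads or more had a median of -0.21. The strength classes were not split by the breed in which the peak was called. In SOX6 50.7% of the regions were Duroc-only and 12.2% Luchuan-only peaks, against 32.0% and 17.3% over all genes. Over all genes, Duroc-only peaks had a median of -0.38 and Luchuan-only peaks 0.66. Strength and peak class are thus not told apart here, and the difference between SOX6 and other genes was not tested.

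Within each of the 9 genes, the robust SD of the log2 ratio over regions was above the median counting SD of those regions. The robust SD of the log2 ratio over regions was 0.46 in SOX6, against a median counting SD of 0.37, 0.38 against 0.22 in TEAD1, 0.28 against 0.16 in TBX15 and 0.24 against 0.21 in NFIX. Over the regions of all genes the robust SD was 0.45 against 0.29. The gap was small in NFIX, and neither SD was given an error. Counting error differs between weak and strong regions, so its median is only a rough guide to the spread from counting alone. Peaks called in a single breed were included, and their ratios are not independent of their class. Whether the regions of any gene varied beyond counting error was thus not tested.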
